A study of Mus musculus with 8 samples.

Results

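The 40 genes described here encode the machinery that copies DNA and the factors that take a cell from G1 into S phase. They were chosen by name for that role, and all 40 were found among the 23235 gene symbols of the deposited table. RNA had been measured in granulosa cells, which surround and nourish the oocyte in the follicle, from the ovaries of female C57BL/6 mice. The 4 groups were wild type (WT) without treatment (0 h), WT taken 44 h after PMSG, CNOT6/6L knockout (KO) without treatment, and KO taken 44 h after PMSG, with 2 libraries each. The labels describe the KO as a double knockout of Cnot6 and Cnot6l. CNOT6 and CNOT6L are deadenylases of the CCR4-NOT complex, which shortens the poly(A) tails of mRNAs, and PMSG is a gonadotropin with FSH-like action that drives follicle growth. The labels name neither an age, a PMSG dose, the design of the knockout alleles nor whether animals were pooled, and nothing in them says that the replicates of a group are different animals, so p-values here reflect only the scatter of these libraries, which may be technical.

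Before S phase, the origin factors CDC6 and CDT1 load the ring-shaped MCM2-7 complex onto DNA. CDC45 and the GINS proteins turn that ring into an active helicase, DNA polymerase alpha with primase starts each strand, and polymerases delta and epsilon extend it with the sliding clamp PCNA, which the RFC complex loads. Cyclin E and E2F transcription factors set off this programme, and most of the genes are E2F targets whose RNA peaks around the G1/S transition. Granulosa cells divide during follicle growth and withdraw from the cell cycle when they luteinise.

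Values are FPKM, fragments per kilobase of transcript and per 1e6 mapped fragments, so levels can be set side by side between genes. Differences are on the scale log2(FPKM + 1), which understates the change of low genes. They come from limma, a linear model fitted to all 8 libraries and to the 13688 genes that reached 1 FPKM in 2 or more libraries, each with a standard error (SE). A gene was called when its p-value, adjusted by Benjamini-Hochberg over all genes of a comparison, was under 0.05. All 40 genes entered the fit.

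Some facts of the whole series bear on what follows. FPKM sums ran from 675557 to 753216 per library, and relative depth, read from the steps between the lowest values, from 0.904 to 1.25 with the median library at 1. Granulosa genes such as Inha (8434 to 23238 FPKM) and Foxl2 (14.1 to 25.2 FPKM) were present in every library. Cnot6 was 11.7 and 12.0 FPKM in KO at 0 h against 29.1 and 18.4 in WT, but the 44 h library labelled KO replicate 1 had 26.7, within the WT values of 26.0 and 26.9, where KO replicate 2 had 17.4. Cnot6l at 0 h was 4.69 and 1.97 in KO and 6.11 and 7.07 in WT. At 44 h it was 2.01 and 1.61 in KO and 4.20 and 2.63 in WT. The Cnot6l value of KO replicate 1 at 0 h was thus above both WT values at 44 h. The 44 h library labelled KO replicate 1 also stood apart in Cyp11a1, the enzyme that opens steroid synthesis, with 129 FPKM against 2508 in KO replicate 2 and 4451 and 4339 in WT at 44 h. Its Cnot6l and its Cyp11a1 both lay below the 2 WT libraries at 44 h, whereas its Cnot6 did not. The label of this library is treated as in doubt, and whether it is right was not tested. Each value below that is drawn from the KO group at 44 h depends on this library. The main counts, medians and named differences between genotypes at 44 h are given also without it.

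The levels spanned a wide range. Slbp, which binds the stem-loop of histone mRNAs, was highest with a mean of 531 FPKM over the 8 libraries, followed by Pcna at 199.99 and the helicase subunit Mcm6 at 144. Pole, the catalytic subunit of polymerase epsilon, was lowest at 3.85, below E2f1 at 5.77 and Pola1, the catalytic subunit of polymerase alpha, at 7.55. Within the MCM2-7 ring, whose 6 subunits assemble in equal numbers, the mean level ran from 40.2 for Mcm5 to 144 for Mcm6, with Mcm7 at 94.9, Mcm3 at 71.0, Mcm2 at 66.1 and Mcm4 at 52.5. Mcm6 was above Mcm5 in all 8 libraries, and the lowest Mcm6 value, 91.4, exceeded the highest Mcm5 value, 56.7.

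**Figure D1:**
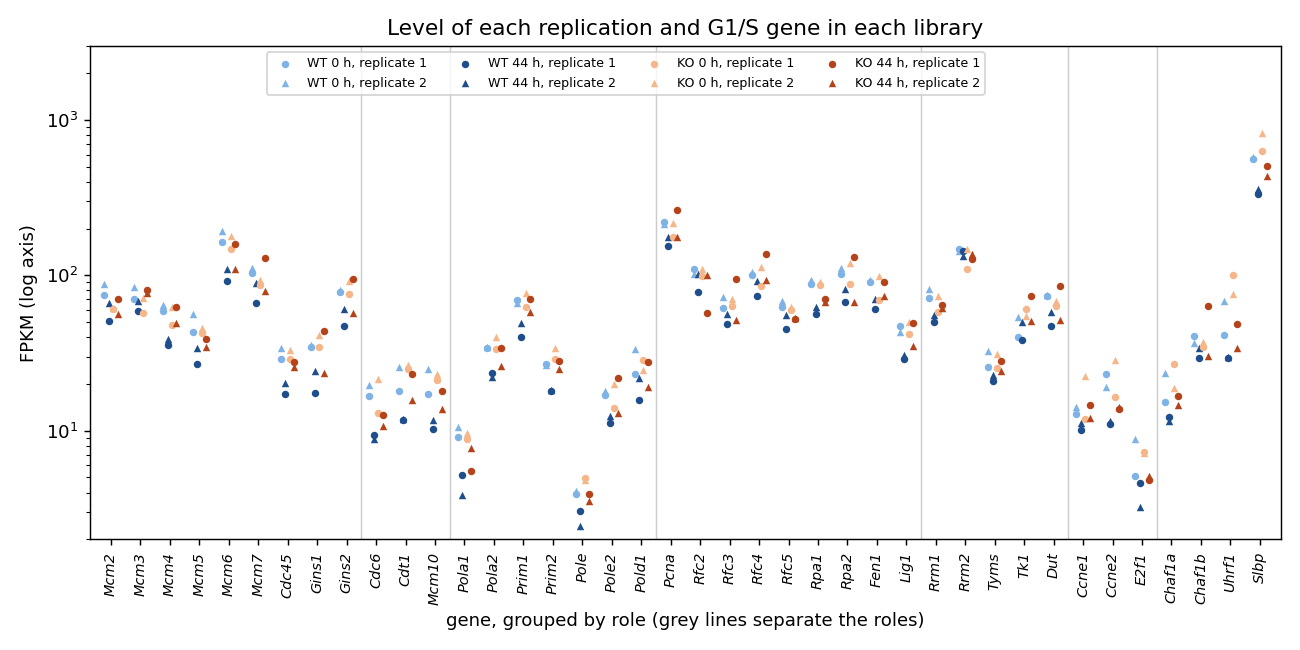
FPKM (log axis) of each of the 40 genes in each of the 8 libraries, with genes grouped by role along the horizontal axis; colours mark the 4 groups, circles replicate 1 and triangles replicate 2. Slbp is highest and Pole lowest, and for 39 of the 40 genes both dark blue points (WT at 44 h) lie below both light blue points (WT at 0 h).

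In WT, every one of the 40 genes had a lower mean at 44 h than at 0 h, with a median log2 difference of -0.55 where the median of all 13688 genes was -0.13. For 39 genes both libraries at 44 h lay below both at 0 h, Tk1 being the exception, and for Rfc2 the nearest libraries were 102.43 and 102.45 FPKM. Over all genes tested, 40.6% separated in this direction. A lower difference of any size was found for 61.9% of all genes. In bulk samples fewer dividing cells and less RNA per cell cannot be told apart. None of the 40 was called, with adjusted p from 0.102 to 0.870, and 22 had an unadjusted p under 0.05, all lower, where 15.8% of all genes did. Few genes were called at all in this fit, 0.0804% of those tested, and its shared spread includes the KO libraries at 44 h. With the 4 WT libraries alone limma called 7 of the 40, Slbp, Cdc6, Mcm6, Mcm4, Ccne2, Pola1 and Rpa1 (adjusted p = 0.0347 to 0.0486), all lower, where 3.85% of all genes were called lower. Without either of the KO libraries at 44 h it called 8 (Cdc45, Cdt1 and Mcm10 in place of Cdc6 and Ccne2), where 4.76% and 4.77% of all genes were called lower, and 5 were called in each of these 3 fits, namely Mcm4, Mcm6, Pola1, Rpa1 and Slbp.

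The 9 helicase genes had a median difference of -0.69 in WT, and the libraries of the 2 times did not overlap for any of them. Mcm6 was 165 and 192 FPKM at 0 h and 91.4 and 111 at 44 h in WT, a difference of -0.82 (SE 0.221, limma adjusted p = 0.111). Cdc45, which joins the MCM ring to form the active helicase, was 28.8 and 34.3 at 0 h and 17.2 and 20.2 at 44 h (-0.72, SE 0.170, adjusted p = 0.104). Mcm4 was 58.6 and 64.0 and then 35.5 and 38.9, and Gins1, a GINS subunit, 34.6 and 35.9 and then 17.4 and 24.1, so that the higher library at 44 h stayed below the lower one at 0 h for both. Among the MCM subunits Mcm3 was at -0.28, Mcm2 and Mcm7 at -0.47, and Mcm5, Mcm4 and Mcm6 between -0.69 and -0.82.

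The 3 genes for loading and firing origins had a median of -0.87, the lowest of the 7 roles. Cdc6, an ATPase that loads the MCM ring, was 16.7 and 19.8 FPKM at 0 h and 9.44 and 8.89 at 44 h in WT (-0.92, SE 0.249, limma adjusted p = 0.112). Cdt1, its partner in loading, was 18.1 and 25.7 and then 11.7 and 12.0. Mcm10, which helps start the helicase, was 17.4 and 25.1 and then 10.3 and 11.7 (-0.87, SE 0.225, adjusted p = 0.110). Each of these WT means at 44 h was 45.9% to 49.8% below that at 0 h.

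Among the 7 polymerase and primase genes, with a median of -0.56, Pola1 had the largest difference of all 40. It was 9.12 and 10.5 FPKM at 0 h and 5.21 and 3.85 at 44 h in WT (-0.98, SE 0.227, limma adjusted p = 0.103), a mean 53.9% lower. Prim2, the large primase subunit, was 27.1 and 26.6 and then 18.1 and 18.2 (-0.54, SE 0.156, adjusted p = 0.120). Prim1, the catalytic primase subunit, was 69.1 and 66.3 and then 40.05 and 49.6. Pola2, the partner of Pola1, was at -0.56, and Pole and its partner Pole2 were at -0.42 and -0.53. In FPKM the means of Pole and Pole2 were 31.3% and 32.2% lower, which is nearly the same. Differences between partners were not tested.

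The clamp, its loader, the single-strand binding protein RPA and the lagging-strand enzymes formed a group of 9 with a smaller median, -0.39. Pcna was 220.0 and 213 FPKM at 0 h and 155 and 178 at 44 h in WT. Rpa1, the large RPA subunit, was 87.7 and 93.1 and then 56.0 and 62.4, and its adjusted p was the lowest of the 40 (-0.60, SE 0.136, limma adjusted p = 0.102). Lig1, the ligase that joins Okazaki fragments, was 47.2 and 43.0 and then 28.8 and 30.6 (-0.59, SE 0.200, adjusted p = 0.148). The 4 clamp-loader subunits had differences from -0.24 for Rfc2 to -0.39 for Rfc5.

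Genes for nucleotide supply held the 2 that differed least. Rrm2, the small subunit of ribonucleotide reductase, was 149 and 144 FPKM at 0 h and 144 and 134 at 44 h in WT (-0.081, SE 0.172, limma adjusted p = 0.808). Tk1, thymidine kinase, was 40.1 and 53.7 and then 38.5 and 50.1 (-0.079, SE 0.239, adjusted p = 0.870). Both differences turned to 0.061 when FPKM were rescaled by the median of ratios. Rrm1, the large subunit of the reductase, was 71.5 and 82.1 and then 50.1 and 55.2 (-0.53), and its libraries did not overlap between the 2 times. Dut, which removes dUTP, was 74.0 and 75.1 and then 47.2 and 58.1 (-0.50), and Tyms, which makes dTMP, was at -0.39.

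Of the regulators, Ccne2, a cyclin E, was 23.1 and 19.3 FPKM at 0 h and 11.0 and 11.6 at 44 h in WT (-0.84, SE 0.254, limma adjusted p = 0.126), and the other cyclin E gene, Ccne1, was at -0.32. E2f1, an activating E2F factor, was 5.12 and 8.79 and then 4.62 and 3.24 (-0.67, SE 0.270, adjusted p = 0.193), or -0.33 without WT replicate 2 at 0 h. Among the chromatin genes, Slbp was 564 and 577 and then 334 and 358 (-0.72, SE 0.181, adjusted p = 0.109). Uhrf1, which guides maintenance DNA methylation behind the fork, was 41.6 and 68.7 and then 29.3 and 29.6 (-0.84, SE 0.287, adjusted p = 0.149), or -0.48 without WT replicate 2 at 0 h. The histone chaperone subunits of CAF-1 were at -0.63 for Chaf1a and -0.28 for Chaf1b.

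**Figure D2:**
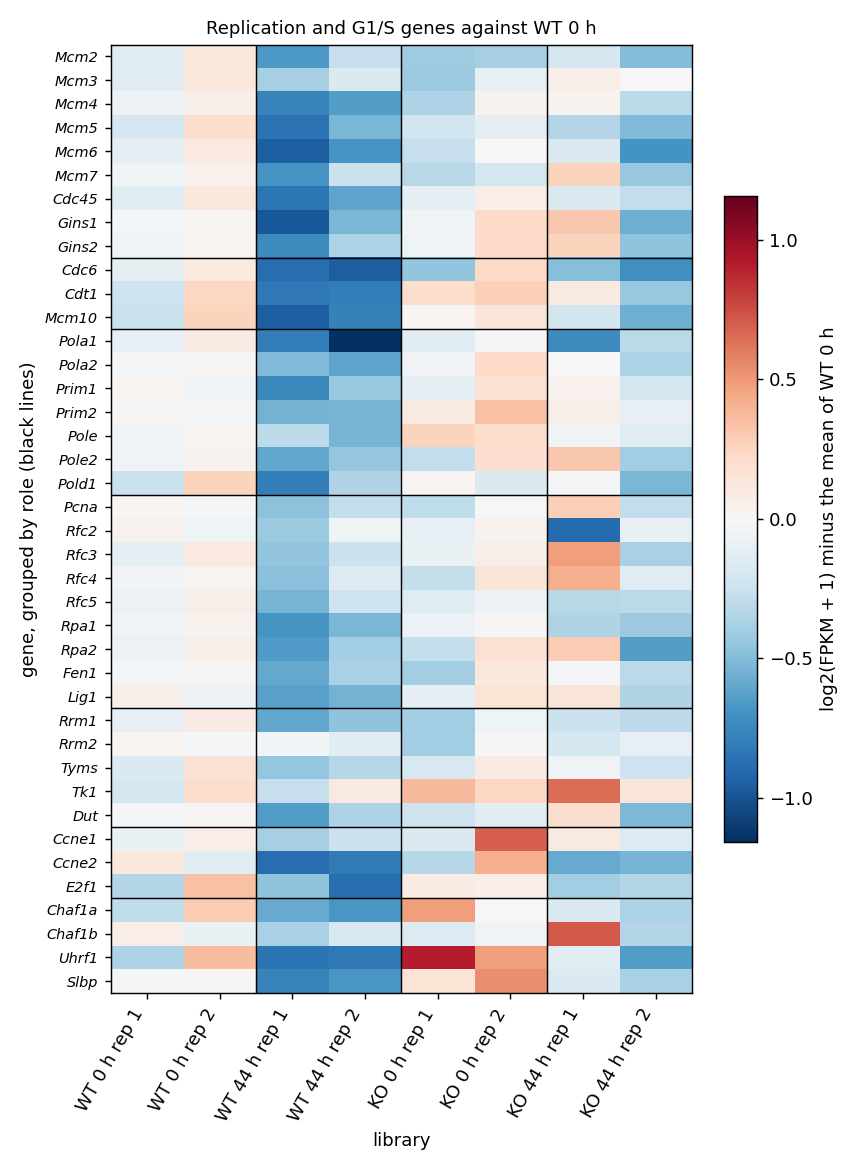
Each row is 1 of the 40 genes, grouped by role, and each column 1 library; the colour gives log2(FPKM + 1) minus the mean of the 2 WT libraries at 0 h. The WT columns at 44 h are blue in nearly every row, the 44 h column labelled KO replicate 1 is mixed, and KO replicate 2 at 44 h is paler blue than WT.

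Because the genes lay lower together, their promoters were read for the E2F type of site. RefSeq promoter windows of build GRCm38.p6, which run from 250 bases before to 50 after an annotated start, were found for 33 of the 40 genes. The words TTTCCCGC, TTTCGCGC, TTTGCCGC and TTTGGCGC were searched on both strands, and neighbouring matches may overlap. At least 1 word was present for 12 of the 33 genes (36.4%). The share was 4.51% of the 9617 tested genes with a window and 2.605% of all 27025 genes with a window. The 12 were Mcm3, Mcm5, Mcm6, Mcm7, Cdt1, Cdc6, Pola1, Pole2, Pold1, Rfc3, Lig1 and Uhrf1. The shorter word CCAAT or its reverse complement was found for 54.5% of the genes and 43.2% of the tested genes with a window. In WT the 12 genes with a word had a median difference of -0.64 (from -0.98 to -0.28) and the 21 without had -0.50 (from -0.87 to -0.079), 2 ranges that overlap widely. These counts describe letters in a window, not bound sites. The genes were chosen for a role in which most are E2F targets, so their higher share is not independent of that choice.

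The bases from 160 to 1 before the start are shown for genes picked after their values were seen. Of these, 3 had a word and were called lower with the WT libraries alone, and 2 were the genes that differed least. The choice does not stand for the rest. Of the other genes called in that fit, Rpa1 and Slbp had a window but no word, and Mcm4 and Ccne2 had no window. Mcm3, with a word, differed by only -0.28 in WT. Capitals mark the words, and in each window the sequence runs in the direction of transcription. Mcm6 (GRCm38.p6, chr1:128359706-128359865, minus strand) holds 3, the first 2 overlapping at 110 and 106 bases before the start and the third at 47. Cdc6 (chr11:98907991-98908150, plus strand) and Pola1 (chrX:93632156-93632315, minus strand) hold 1 each, at 138 bases before the start. Rrm2 (chr12:24708094-24708253, plus strand) and Tk1 (chr11:117826015-117826174, minus strand) hold none in this window.
Mcm6: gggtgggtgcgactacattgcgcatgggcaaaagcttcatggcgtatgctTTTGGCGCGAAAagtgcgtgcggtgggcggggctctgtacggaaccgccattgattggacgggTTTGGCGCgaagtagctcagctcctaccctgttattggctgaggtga
Cdc6: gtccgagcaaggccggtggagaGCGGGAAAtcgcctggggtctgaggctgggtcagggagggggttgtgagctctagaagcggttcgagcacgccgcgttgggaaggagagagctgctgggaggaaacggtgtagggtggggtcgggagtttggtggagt
Pola1: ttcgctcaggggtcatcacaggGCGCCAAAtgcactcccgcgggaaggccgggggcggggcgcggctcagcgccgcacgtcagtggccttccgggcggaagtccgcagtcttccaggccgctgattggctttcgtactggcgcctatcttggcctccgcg
Rrm2: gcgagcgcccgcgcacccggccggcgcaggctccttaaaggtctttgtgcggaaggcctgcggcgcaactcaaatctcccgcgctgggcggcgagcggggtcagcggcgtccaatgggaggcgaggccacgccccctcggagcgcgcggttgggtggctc
Tk1: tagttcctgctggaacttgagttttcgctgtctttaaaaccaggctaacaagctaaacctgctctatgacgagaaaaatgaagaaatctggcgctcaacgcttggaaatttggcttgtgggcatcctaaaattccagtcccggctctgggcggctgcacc

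In KO the genes were divided in direction. Their median difference between 44 h and 0 h was -0.21, with 28 of 40 lower, beside a median of -0.11 and 60.6% lower over all genes. None was called, where 0.139% of all genes were, and 4 had an unadjusted p under 0.05, namely Uhrf1, Slbp, Rpa1 and Ccne2, all lower, where 15.4% of all genes did. Uhrf1 was 101 and 75.3 FPKM at 0 h and 48.8 and 33.8 at 44 h in KO (-1.08, SE 0.287, limma adjusted p = 0.123). Slbp was 637 and 828 and then 507 and 439 (-0.62, SE 0.181, adjusted p = 0.137), and Rpa1 was 86.1 and 91.0 and then 70.9 and 67.3 (-0.35, SE 0.136, adjusted p = 0.201). For 15 genes both KO libraries at 44 h lay below both at 0 h (34.1% of all genes did), among them all 3 loading and firing genes. Mcm3 was the 1 gene that separated the other way (14.3% of all genes did), with 57.2 and 71.9 at 0 h and 80.1 and 77.0 at 44 h.

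The 2 KO libraries at 44 h were far apart in these genes. The library labelled KO replicate 1 was higher than KO replicate 2 for 34 of the 40, where it was higher for 48.7% of all genes. In the other groups replicate 1 was higher for 6 to 8 of the 40, where 46.5%, 58.3% and 57.9% of all genes were in WT at 0 h, WT at 44 h and KO at 0 h. The median fold between the KO libraries at 44 h was 1.29, against 1.10 between the WT libraries at 0 h, 1.16 between those at 44 h and 1.20 between the KO libraries at 0 h. Chaf1b was furthest apart, with 63.3 and 30.2 FPKM. Rpa2, the middle subunit of RPA, was 131 and 67.8, Gins1 43.9 and 23.6, and Rfc3 94.3 and 51.3. Rfc2 went the other way, with 56.9 in the library labelled KO replicate 1 and 99.8 in KO replicate 2, while the other loader subunits Rfc3 and Rfc4 were higher in the former and Rfc5 was level at 52.4 and 52.8. Against the WT 0 h mean, the median of the 40 genes was -0.016 in the library labelled KO replicate 1 and -0.35 in KO replicate 2, whereas the WT libraries at 44 h were at -0.64 and -0.46.

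Without the 44 h library labelled KO replicate 1, the KO median between the 2 times was -0.35, with 38 of 40 lower, and limma called Uhrf1 (-1.34, SE 0.314, adjusted p = 0.0497), where 4.19% of all genes were called lower. Without KO replicate 2 at 44 h, that median was -0.017, with 22 of 40 lower and 0 called. The difference between the WT and KO changes over time (the interaction) was positive for 38 of 40, with a median of 0.41 beside -0.0058 over all genes, of which 49.2% were positive. None was called (adjusted p = 1.00 for each, 1 of 40 at an unadjusted p under 0.05), where 0.0438% of all genes were. Mcm4, which in KO was 47.7 and 62.9 FPKM at 0 h and 62.9 and 49.2 at 44 h, had the smallest p (0.73, SE 0.274), followed by Mcm3 (0.57, SE 0.249) and Cdc45 (0.51, SE 0.241). The median was 0.20 without the 44 h library labelled KO replicate 1 and 0.57 without KO replicate 2.

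**Figure D3:**
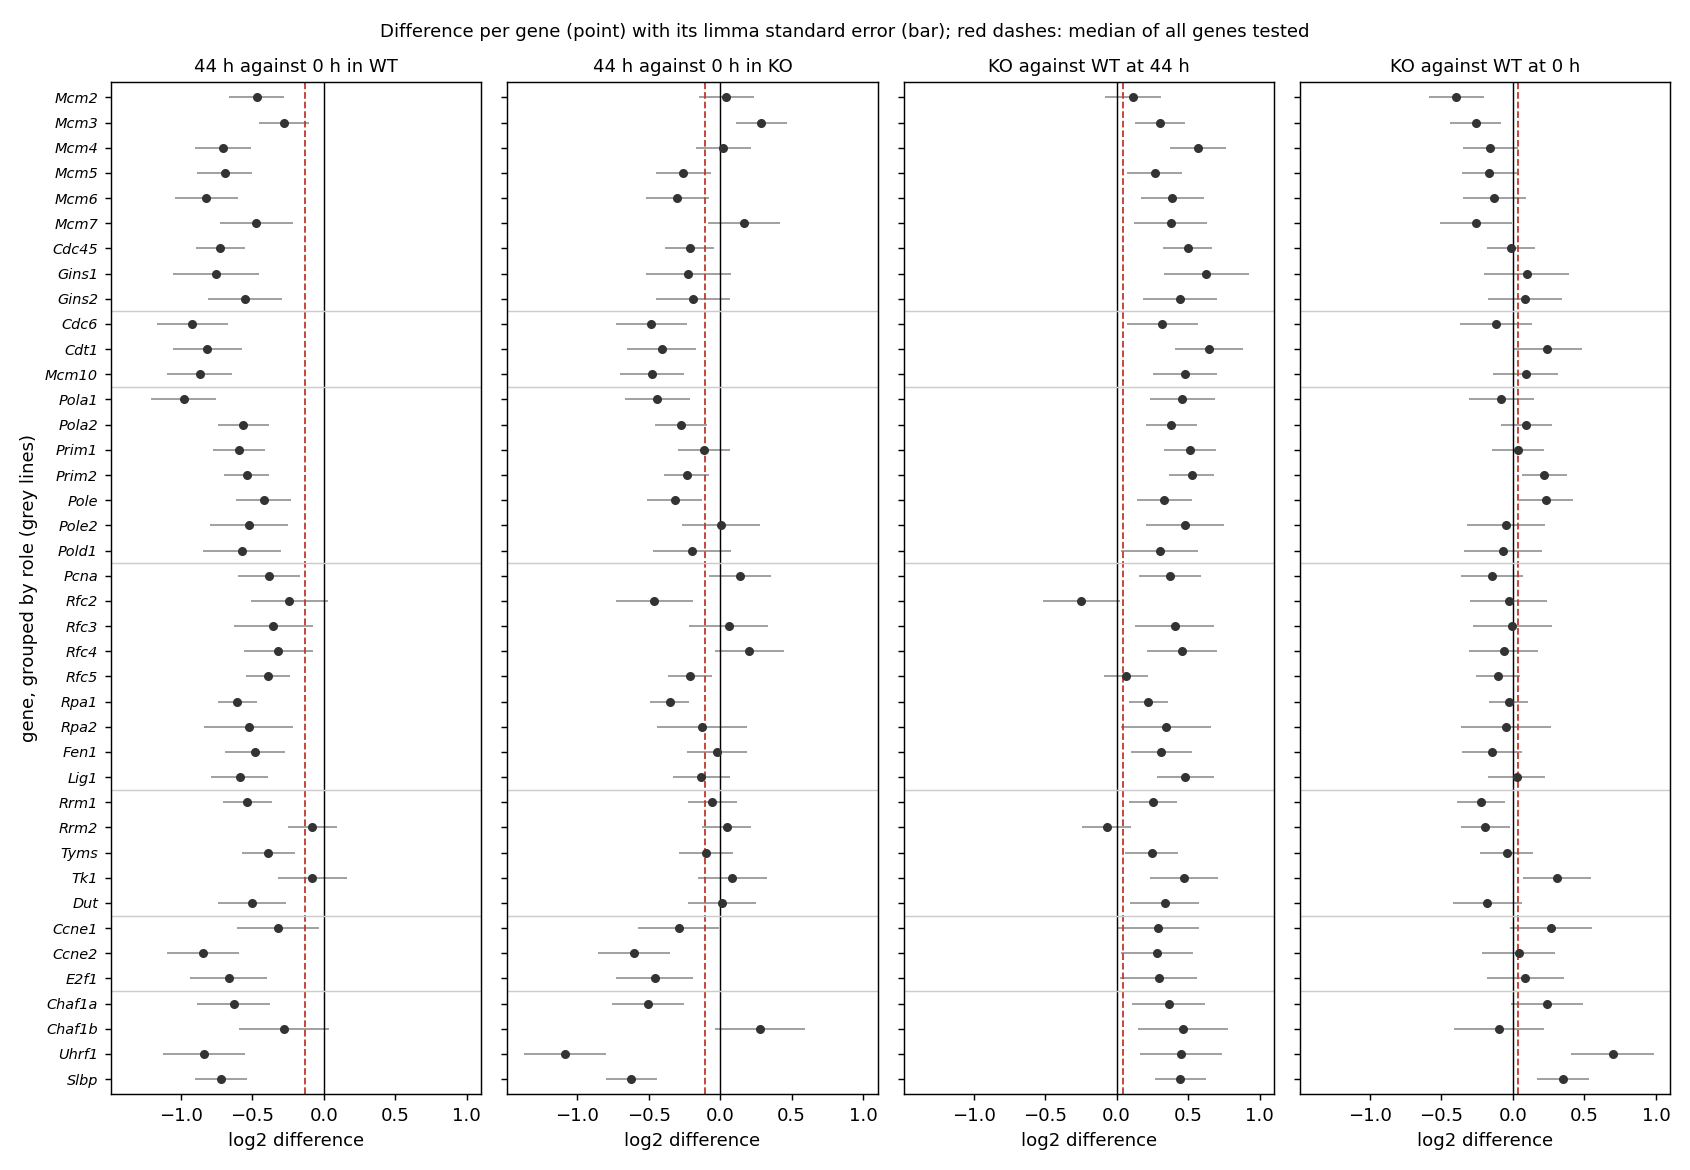
Log2 difference of each of the 40 genes (points) with the limma standard error (bars) in 4 comparisons; the red dashed line is the median of all genes tested and grey lines separate the roles. The points lie left of the line at 0 for all 40 genes in WT over time, on both sides of it in KO over time, and to its right for 38 of 40 genes in KO against WT at 44 h.

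At 44 h, KO lay above WT in 38 of the 40 genes, with a median difference of 0.38 beside 0.046 over all genes, of which 55.5% were higher. For 27 genes both libraries labelled KO lay above both WT libraries, where 23.9% of all genes separated in this direction, and no gene separated the other way (15.1% of all genes). None was called (adjusted p = 0.494 to 0.897), where 0.0219% of all genes were, and 7 had an unadjusted p under 0.05, all higher, where 6.69% of all genes did. The comparison shares the WT libraries at 44 h with the one over time in WT, so the 2 are not independent. The 2 genes not higher in KO were Rfc2 (-0.25, but 0.15 without the library labelled KO replicate 1) and Rrm2 (-0.069), the latter with 127 and 137 FPKM against 144 and 134 in WT.

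The genes with the smallest p were spread over the roles. Prim2 was 28.2 and 25.0 FPKM in KO and 18.1 and 18.2 in WT at 44 h (0.53, SE 0.156, limma adjusted p = 0.494), and Prim1 was 70.2 and 58.5 against 40.05 and 49.6 (0.51, SE 0.182). Mcm4 was 62.9 and 49.2 in KO against 35.5 and 38.9 in WT (0.57, SE 0.194, adjusted p = 0.497), and Cdc45 was 27.8 and 25.7 against 17.2 and 20.2 (0.50, SE 0.170). For each of these 4 genes the lower KO library was above the higher WT library, and without the library labelled KO replicate 1 the differences were 0.44, 0.38, 0.39 and 0.44 in the order given. The more abundant Mcm6 overlapped, with 158 and 109.9 against 91.4 and 111, and Pcna, with 262 and 177.7 against 155.3 and 177.7, was level with WT in KO replicate 2. Cdt1 was 23.3 and 15.7 against 11.7 and 12.0 (0.65, SE 0.240, adjusted p = 0.497), and Mcm10 was 17.9 and 13.8 against 10.3 and 11.7 (0.48). Without the library labelled KO replicate 1 these were 0.37 and 0.30. The order of the genes depended on the library: Cdt1 had the largest difference with both, Pola1 (0.67) with KO replicate 2 alone and Gins1 (1.06) with the library labelled KO replicate 1 alone.

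The other roles followed. Lig1 was 49.7 and 35.2 FPKM in KO against 28.8 and 30.6 in WT at 44 h (0.48, SE 0.200, limma adjusted p = 0.506), and Rfc4 was 138 and 92.9 against 73.2 and 92.5 (0.46). Slbp was 507 and 439 against 334 and 358 (0.45, SE 0.181), and Uhrf1 was 48.8 and 33.8 against 29.3 and 29.6 (0.45). Both KO libraries were higher for each of these 4 genes, by a narrow margin for Rfc4. Without the library labelled KO replicate 1 the differences were 0.24 for Lig1, 0.17 for Rfc4, 0.34 for Slbp and 0.19 for Uhrf1. Of the nucleotide genes, Tk1 was 73.2 and 51.2 against 38.5 and 50.1 (0.47) and Rrm1 was 64.2 and 61.9 against 50.1 and 55.2 (0.26), which became 0.22 and 0.23 without that library. The regulators Ccne2, with 13.7 and 14.2 against 11.0 and 11.6, and E2f1, with 4.85 and 5.12 against 4.62 and 3.24, differed by 0.28 and 0.29, and by 0.31 and 0.33 without it.

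The size of this difference rested on which KO library was read. In the library labelled KO replicate 1, 37 genes lay above both WT libraries at 44 h and 24 were at or above the lower WT library at 0 h. In KO replicate 2, 27 lay above both WT libraries at 44 h, 13 lay between them and 3 reached the lower WT library at 0 h. The count above both WT libraries at 44 h was also made for other lists, which are described below. In KO replicate 2 it held 55 of 79 further replication genes and 24 of 25 mitosis genes. Among the cell type lists it ran from 3 of 9 luteal and steroid markers to 24 of 24 tested oocyte markers. In the library labelled KO replicate 1 these counts were 64, 25, 0 and 24. The shares over all genes were not worked out, so the counts only describe the lists. The median without the library labelled KO replicate 1 was 0.19 (34 of 40 higher, beside 0.059 over all genes), and 0 were called. Without KO replicate 2 it was 0.56, and limma called Chaf1b, Gins1 and Rfc3 higher (adjusted p = 0.0334 to 0.0499), where 2.29% of all genes were called higher. In each of these fits 1 lone KO library was assumed to vary like the other groups.

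Without PMSG the libraries of the genotypes overlapped for 31 of the 40 genes. The median difference between KO and WT at 0 h was -0.036 (0.034 over all genes), with 16 of 40 higher in KO where 54.6% of all genes were. None was called (adjusted p from 0.507), where 0.0365% of all genes were. Uhrf1 was 101 and 75.3 FPKM in KO and 41.6 and 68.7 in WT (0.70, SE 0.287, limma adjusted p = 0.507), the 1 gene of 40 with an unadjusted p under 0.05, where 7.55% of all genes were higher at that level. The difference was 0.34 without WT replicate 1 and 1.05 without WT replicate 2. Slbp was 637 and 828 in KO against 564 and 577 in WT (0.35, SE 0.181), or 0.16 without KO replicate 2. Mcm2 was 60.6 and 61.9 in KO against 74.3 and 88.0 in WT (-0.40, SE 0.194, adjusted p = 0.582). The 5 genes with both KO libraries above both WT libraries were Uhrf1, Slbp, Prim2, Tk1 and Pole (27.3% of all genes did), and the 4 with both below were Mcm2, Mcm7, Rfc5 and Dut (19.1%).

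A further 80 replication and G1/S genes, listed beside the 40, were read for comparison, with 79 matched in the table. In WT 74 of 79 were lower at 44 h (median -0.48) and 65 separated downwards, where 61.9% and 40.6% of all genes did. At 44 h KO was above WT in 71 of 79 (median 0.31), and 48 separated upwards, where 55.5% and 23.9% of all genes did. Without the library labelled KO replicate 1 at that time 63 of 79 were higher (median 0.16). Limma called none in either comparison with both KO libraries (adjusted p from 0.0776 and from 0.488). At an unadjusted p under 0.05, 33 were lower in WT and 14 higher in KO. Without KO replicate 2 at 44 h limma called 9 between the genotypes in either direction, where 5.85% of all genes were. That fit rests on the lone KO library whose label is in doubt. The 9 held both directions, with Rnaseh2a at -1.15 and Brca2 at 1.11. Without the library labelled KO replicate 1 instead, none of the 79 was called between the genotypes. Msh6, a mismatch repair protein, had 24.6 and 29.7 FPKM at 0 h and 13.4 and 11.0 at 44 h in WT (-1.09). Pold3, a polymerase delta subunit, was at -0.86 in WT. Of 4 further regulators and origin genes, Orc1, an origin recognition subunit, was at -0.87, Rb1, the retinoblastoma repressor of E2F, at -0.63, E2f4, mainly a repressor E2F, at -0.35, and Cdk2, the partner of cyclin E, at -0.25.

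Some of these genes ran against the rest. Rnaseh2a, the catalytic subunit of the enzyme that cuts RNA out of DNA hybrids, was 40.8 and 40.1 FPKM at 0 h and 129.6 and 115 at 44 h in WT (1.57, SE 0.264, limma adjusted p = 0.0776). In KO it was 44.3 and 45.3 at 0 h, and at 44 h 54.2 (labelled replicate 1) and 99.0 (replicate 2). Pold4, the small polymerase delta subunit, was also higher in WT at 44 h (0.52), and Tipin, a fork protection factor, was at 0.22. In KO against WT at 44 h, Rnaseh2a was at -0.73, Pold4 at -0.40 and E2f4 at -0.22, while Hells, a chromatin remodeller, was at 0.75, Brca2 at 0.84 and Msh6 at 0.67. Without the library labelled KO replicate 1 these values were -0.30, -0.21 and -0.060, and 0.61, 0.57 and 0.59.

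Markers of other cells moved beside these genes. A list of 25 oocyte markers was lower at 44 h than at 0 h in all 25 in WT and higher in KO than in WT in all 25 at 0 h and 24 of 25 at 44 h, and none was at 0 in any library. In WT its summed level was 3088 and 5207 FPKM at 0 h and 1707 and 1740 at 44 h. In KO it was 8668 and 7351 at 0 h, and at 44 h it was 4111 in the library labelled KO replicate 1 and 2408 in KO replicate 2. Among the 40 genes at 0 h, 24 were lower and 16 higher in KO, the latter with Uhrf1 and Slbp. The part of oocyte RNA in the results was not tested.

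The 9 luteal and steroid markers were all higher in WT at 44 h, with sums of 11736 and 13763 FPKM against 2484 and 1965 at 0 h. In KO at 44 h their sum was 2628 in the library labelled KO replicate 1, the one with the higher replication genes, and 11107 in KO replicate 2. Theca and stroma markers were higher at 44 h in WT for 10 of 12, with sums of 5922 and 8134 against 2464 and 2004. At 44 h in KO they summed to 2661 and 7587. Hsd3b1 is in both this list and the luteal and steroid list, so the sums of the 2 lists are not separate readings. The 8 oviduct and ciliated markers summed to 380 and 13.4 in WT at 44 h and to 10.4 and 315 in KO at 44 h, which sets 1 library of each pair apart. Immune markers summed to 956 in KO replicate 1 at 0 h against 179 to 470 elsewhere, with Cd3e, a T cell gene, at 0 in some library. Emr1 entered these sums more than once, since the list held it under both its older and its newer symbol, Adgre1. Granulosa markers summed to 9874 to 25737, highest in the 44 h library labelled KO replicate 1. Endothelial markers summed to 23.2 to 69.6 and surface epithelium markers to 130 to 458. Their part in the results was not tested.

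Genes of mitosis were set beside them. Of 25 such genes all 25 were lower in WT at 44 h (median -0.54) and all 25 were higher in KO than in WT at 44 h (median 0.45), or 24 of 25 (median 0.43) when the library labelled KO replicate 1 was left out. With all libraries limma called none of them, with 19 and 12 at an unadjusted p under 0.05. Over all genes, 61.9% were lower in WT over time and 55.5% higher in KO at 44 h. At an unadjusted limma p under 0.05 the shares were 15.8% and 6.69%. Between the genotypes at 0 h, 21 of 25 were higher in KO (median 0.19), where the median of the 40 replication genes was -0.036. In KO replicate 2 at 44 h the mitosis genes lay at -0.13 from the WT 0 h mean and the replication genes at -0.35. Top2a, which untangles chromosomes, was 69.1 FPKM there and 51.5 and 43.7 in WT at 44 h.

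**Figure D4:**
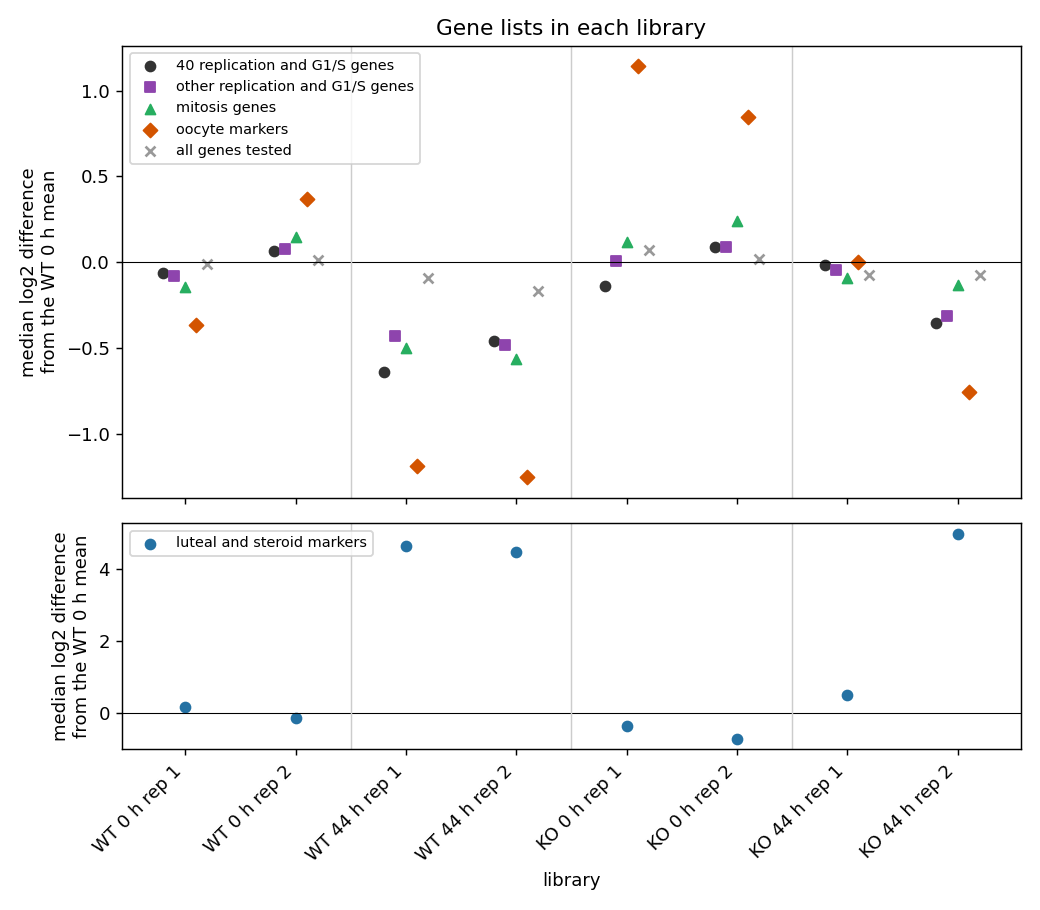
Median log2 difference from the WT 0 h mean of 6 gene lists in each library, with luteal and steroid markers in a panel of their own. The 40 replication and G1/S genes lie at -0.64 and -0.46 in WT at 44 h, at -0.016 in the 44 h library labelled KO replicate 1, where luteal and steroid markers lie at 0.50, and at -0.35 in KO replicate 2, where these lie at 4.97.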

How the data were processed

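The authors deposited 1 table of FPKM values with a column per library, per the file headers. Build mm9, Cufflinks 2.2.1 and TopHat2 2.1.1 are named, without their roles, per the submitters' processing notes, and the annotation is not given in the sources used here. Columns were matched to libraries through the labels. FPKM are not counts, so no count model was used. Values were taken as log2(FPKM + 1), and limma 3.58.1 (R 4.3.3; two-sided, with trended empirical Bayes) was fitted with a mean per group to 8 libraries, leaving 4 residual degrees of freedom, in 5 comparisons. The code was tested on simulated data. The 40 genes and the lists were chosen with earlier results of these data known. Named were, per role, the gene with the highest mean and the 2 with the smallest p in WT over time and in KO against WT at 44 h, the 3 with the smallest p in the other comparisons, and of the further genes the 3 with the smallest p in each direction plus E2f4, Rb1, Cdk2 and Orc1; other genes were named after their values were seen. Older symbols were matched through the RefSeq gene table. Alternatives covered the pseudocount, the filter, scaling, a replicate block, the groups fitted, robust empirical Bayes and each library left out.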

Additional observations from a re-analysis of the deposited data

Results flagged for a closer look

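Mcm3, an MCM ring subunit, was singled out because both WT libraries were lower at 44 h (58.8 and 68.5 FPKM) than at 0 h (70.5 and 84.2), whereas both libraries labelled KO were higher (80.1 and 77.0 against 57.2 and 71.9). The difference between the 2 changes was 0.57 (log2, SE 0.249) and did not pass the limma interaction test (adjusted p = 1.00). It stayed positive, from 0.40 to 0.73, when each library was left out in turn, and was 0.54 without the 44 h library labelled KO replicate 1, whose label is in doubt. Groups of 2 libraries allow no test for outlying samples.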

How the results depend on the processing

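With 2 libraries per group and no read counts, small differences were not resolvable, and the 2 KO libraries at 44 h decided most of what changed. The number of the 40 genes called was 0 in each comparison, and it became 7 for WT over time with only the groups compared. Leaving out each library in turn gave 0 to 8 called genes for WT over time, 0 to 1 for KO over time, 0 to 3 for KO against WT at 44 h and 0 for the other comparisons. The medians then ranged from -0.64 to -0.46 for WT over time, from -0.35 to -0.017 for KO over time, from -0.14 to 0.089 for KO against WT at 0 h, from 0.19 to 0.56 for KO against WT at 44 h and from 0.20 to 0.57 for the interaction. The other settings left each median within 0.157, the standard deviation of library medians. Median-of-ratios scaling moved the median of all genes in WT over time from -0.13 to -0.0091 and that of the 40 genes from -0.55 to -0.41, with 38 of 40 lower. In KO over time it moved them to 0.027 and -0.051. The count of all genes called was 11, 19, 5, 3 and 6 in WT over time, KO over time, KO against WT at 0 h and at 44 h and the interaction, and over the settings it ranged from 4 to 1333, 3 to 1169, 3 to 9, 2 to 801 and 4 to 78. The counts above 100 came with the WT libraries alone or without 1 of the KO libraries at 44 h.

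Whether libraries with the same replicate number belong together is not known. The correlation of deviations between groups ran from -0.11 to -0.0068, which cannot decide it. Replicate 1 was higher for 8, 7 and 6 of the 40 genes in WT at 0 h, WT at 44 h and KO at 0 h. In KO at 44 h it was higher for 34. With a replicate block 0 of the 40 genes were called in each comparison, and the count of all genes called in WT over time went from 11 to 7 and in KO over time from 19 to 6. With the KO numbers at 44 h crossed, an alternative chosen after seeing the data, 0 of the 40 genes were called and 27 of all genes in KO over time.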
